A study of Mus musculus with 14 samples.

Results

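Surfactant and alveolar type 2 genes were followed in 14 mouse lung tumours whose RNA was sequenced. The members were 10 genes taken by symbol: Sftpa1, Sftpb, Sftpc, Sftpd, Abca3, Lamp3, Slc34a2, Napsa, Etv5 and Cxcl15. Each matched 1 of the 46517 Ensembl gene rows in the table, and all 10 passed the filter on low values, which asked for 1 FPKM or more in 3 or more libraries. FPKM counts fragments per length of transcript and size of library, so levels of different genes can be set side by side.

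The tumours came from 2 engineered mouse models of small cell lung cancer. RPM mice (n = 11) carry floxed Rb1, floxed Trp53 and a Cre-activated (LSL) Myc T58A allele, which 9 tumours had as LSL/LSL and 2 (RPM replicates 2 and 4) as LSL/+. RPR2 mice (n = 3) carry floxed Rb1, floxed Trp53 and floxed p130, the product of Rbl2. Rb1 and Trp53 are thus targeted in both models, and every tumour is labelled untreated. Cre came from an adenovirus that expresses it from the Cgrp promoter, a promoter of neuroendocrine cells. Tumours were cut out by eye, so a library can hold lung tissue around the tumour. The titles of RPM replicates 6 and 7 share a number, as do those of RPM replicates 10 and 11. Nothing in the labels says whether such tumours came from 1 animal, so p-values measure the spread between these samples. Age, sex and strain were not given in the labels. The library descriptions carry different leading numbers in the RPM and RPR2 tumours, so anything that goes with them and the model cannot be told apart.

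Surfactant is a film of lipid and protein that lowers surface tension in the alveoli. Alveolar type 2 cells make it, store it in lysosome-related organelles called lamellar bodies and release it into the airspace. The transcription factors NKX2-1 and FOXA2 are known to drive surfactant genes, and small cell lung cancers can also express NKX2-1. Sftpc is widely used as the marker of alveolar type 2 cells.

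Libraries were estimated to hold 17.5 to 20.1 M mapped reads in RPM and 21.2 to 22.9 M in RPR2, from the steps of low FPKM values. The labelled tissue was checked against 12 neuroendocrine genes. Their summed level was 249 to 1481 FPKM in the RPM tumours, and 3629, 5002 and 19.2 FPKM in RPR2 replicates 1, 2 and 3. In RPR2 replicate 3 the granin gene Chga stood at 0.74 FPKM and the synaptic vesicle gene Syp at 0.64. Chga had a median of 83.2 FPKM in the RPM tumours and was at 588 and 361 FPKM in RPR2 replicates 1 and 2. Of the 12 genes, 9 were below 1 FPKM in RPR2 replicate 3 and none was at 0. The others were Calca at 7.47, Resp18 at 5.39 and Uchl1 at 2.45 FPKM. Calca and Resp18 lay within their RPM ranges (4.18 to 22.8 and 5.04 to 64.8 FPKM), and Uchl1 lay below its own (124 to 876 FPKM). Most markers of the labelled tumour type were thus close to absent from RPR2 replicate 3. Differences of the 10 genes and counts over gene lists are given with and without that library.

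RefSeq promoter windows (GRCm38.p6) were at hand for 7 of the 10 genes, and the 250 bases upstream of the start site are printed for 4 whose levels moved together. They were chosen because Sftpb and Sftpa1 are surfactant genes that held the NKX2-1 motif, Lamp3 held a FOXA motif and Cxcl15 held no motif searched. Sequences run 5′ to 3′ on the strand of the gene, and capitals mark a motif match. The Sftpb window is chr6:72304360-72304609 on the plus strand, that of Sftpa1 chr14:41131538-41131787 on the plus strand, that of Lamp3 chr16:19706366-19706615 on the minus strand and that of Cxcl15 chr5:90794284-90794533 on the plus strand.
Sftpb: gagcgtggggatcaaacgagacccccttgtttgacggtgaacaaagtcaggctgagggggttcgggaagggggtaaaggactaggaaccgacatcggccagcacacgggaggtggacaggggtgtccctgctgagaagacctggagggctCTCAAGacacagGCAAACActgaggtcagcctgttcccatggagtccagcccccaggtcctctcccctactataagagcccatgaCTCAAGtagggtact
Sftpa1: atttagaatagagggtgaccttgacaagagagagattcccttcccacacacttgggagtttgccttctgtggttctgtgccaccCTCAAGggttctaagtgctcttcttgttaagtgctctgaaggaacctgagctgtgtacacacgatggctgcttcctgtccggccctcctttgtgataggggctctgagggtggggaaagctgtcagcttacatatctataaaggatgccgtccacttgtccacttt
Lamp3: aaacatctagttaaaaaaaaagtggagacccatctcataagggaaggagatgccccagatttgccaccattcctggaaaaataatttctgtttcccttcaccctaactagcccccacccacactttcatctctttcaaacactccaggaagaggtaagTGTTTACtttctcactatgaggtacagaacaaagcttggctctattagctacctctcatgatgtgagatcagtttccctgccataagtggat
Cxcl15: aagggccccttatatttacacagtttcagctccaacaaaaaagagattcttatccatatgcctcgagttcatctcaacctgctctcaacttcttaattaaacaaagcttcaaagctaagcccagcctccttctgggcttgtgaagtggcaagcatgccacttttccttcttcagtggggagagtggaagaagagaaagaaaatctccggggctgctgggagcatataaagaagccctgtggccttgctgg

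Motifs were searched on both strands as CTCAAG for NKX2-1, TGTTTAC and TGTTTGC for FOXA, TTGCNNAA for C/EBP and CCGGAA for ETS factors. Sftpb held CTCAAG 100 to 95 and 15 to 10 bases upstream of the start, and a FOXA motif on the opposite strand between these, 88 to 82 bases upstream. Sftpa1 held CTCAAG 166 to 161 bases upstream. Lamp3 held TGTTTAC 92 to 86 bases upstream. CTCAAG was in 2 of the 8 windows of the members (Etv5 has 2 windows) and in 13.3% of all 32851 windows of that length, and TGTTTAC in 2 of 8 and in 3.17%. TGTTTGC, TTGCNNAA and CCGGAA were each in 1 of 8 member windows, against 4.30%, 9.56% and 12.0% of all windows. No 2 of these motifs overlapped in a printed window, and a match describes letters only.

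All 10 genes fell in RPM relative to RPR2 (n = 11 and 3), where a call means a p under 0.05 by limma on log2(FPKM + 1) after Benjamini-Hochberg adjustment over 15719 tested genes. Of all tested genes 22.8% were called lower. None of the 10 rose, against 18.4% of all tested genes. The median difference of the 10 genes was -4.90 log2 units, against -0.06 over all tested genes. The groups did not overlap for 9 of the 10 genes, against 13.6% of all tested genes that were lower in RPM in this way and 11.1% that were higher. Napsa was the exception. In bulk tissue, fewer cells of a type and less RNA per cell cannot be told apart.

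Without RPR2 replicate 3, 6 of the 10 genes were called lower in RPM and 27.4% of all tested genes were. The median difference of the 10 genes was then -3.50, against -0.20 over all tested genes. The 6 genes were Sftpa1, Abca3, Lamp3, Slc34a2, Etv5 and Cxcl15. Sftpb, Sftpc, Sftpd and Napsa kept their direction and did not pass. With RPR2 replicate 1 or 2 left out instead, all 10 were called, against 16.6% and 15.4% of all tested genes.

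**Figure D1:**
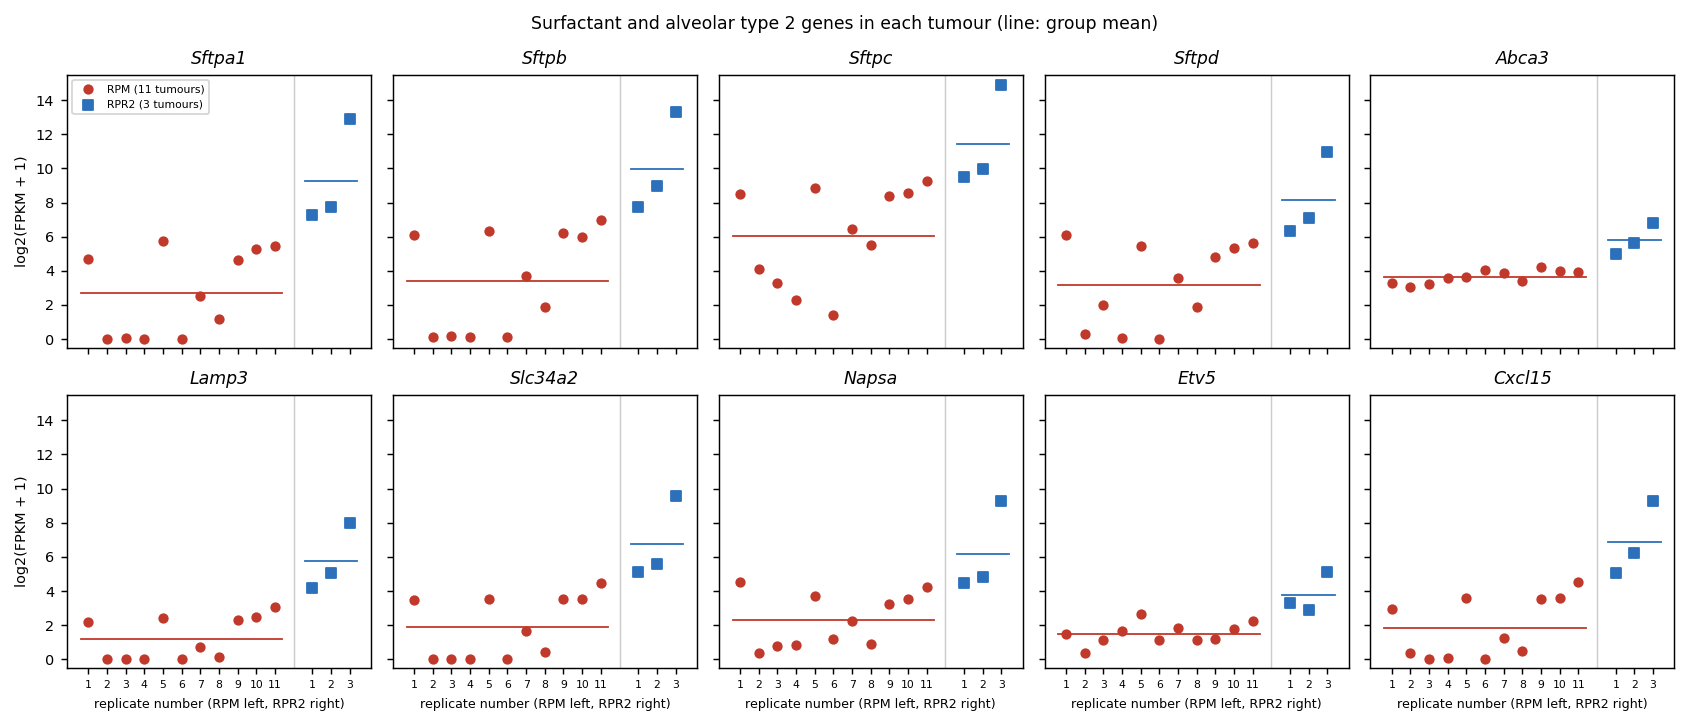
Level of each gene as log2(FPKM + 1) (vertical axis) in each library (horizontal axis, replicate number), with RPM tumours as red circles, RPR2 tumours as blue squares and a line at each group's mean. RPR2 replicate 3 was the highest library for all 10 genes, and Abca3 and Etv5 varied least among the RPM tumours.

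Sftpc and Sftpb encode the small hydrophobic proteins that spread the surfactant film. Sftpc lies on chromosome 14, 70520949 to 70524081, minus strand (ENSMUSG00000022097, GENCODE M21 on GRCm38). It ran from 1.62 to 615 FPKM in the RPM tumours with a median of 87.3, against 709, 983 and 30744 FPKM in RPR2 replicates 1, 2 and 3. All RPM tumours lay below all RPR2 tumours, but the highest RPM tumour, replicate 11, came close to RPR2 replicate 1, which was 1.15 times as high. In RPR2 replicate 3 Sftpc was the most abundant gene of the library, at 3.73% of the summed FPKM of all genes.

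The difference of Sftpc was -5.38 ± 1.70 log2 units (SE; limma adjusted p = 0.0198). Without RPR2 replicate 3 it was -3.65 (limma adjusted p = 0.129), with a 95% interval of -7.66 to 0.36 that includes no difference. Over the 25 alternatives tried the adjusted p of Sftpc ran from 0.00830 to 0.129.

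Sftpb, on chromosome 6, 72304610 to 72314371, plus strand (ENSMUSG00000056370), ran from 0.07 to 125 FPKM in the RPM tumours with a median of 11.8, against 212, 497 and 9992 FPKM in the RPR2 libraries. The groups did not overlap. RPM replicates 2, 3, 4 and 6 stood at 0.07 to 0.12 FPKM, at or near the level of 3 reads (0.104 to 0.119 FPKM in RPM, counting error only). The difference was -6.57 ± 1.73 log2 units (SE; limma adjusted p = 0.00711) and -4.92 without RPR2 replicate 3 (limma adjusted p = 0.0516, range over the 25 alternatives 0.000693 to 0.0516).

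Sftpa1 and Sftpd encode the collectins SP-A and SP-D, which bind microbes in the airspace. They are neighbours on chromosome 14, at 41131782 to 41136452 on the plus strand and at 41172214 to 41185149 on the minus strand, with 35761 bases between them. Sftpa1 ran from 0 to 53.7 FPKM in the RPM tumours with a median of 4.81, against 152, 212 and 7512 FPKM in the RPR2 libraries. It was listed at 0 in RPM replicates 2, 4 and 6, where 3 reads would equal 0.0533 to 0.0612 FPKM. The difference of Sftpa1 was -6.60 ± 1.52 log2 units (SE; limma adjusted p = 0.00306), and it was still called without RPR2 replicate 3 (-4.80, limma adjusted p = 0.0267).

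Sftpd ran from 0 to 66.3 FPKM in the RPM tumours with a median of 10.9, against 79.6, 135 and 1994 FPKM in the RPR2 libraries. RPM replicate 1 was the highest RPM tumour and lay just below RPR2 replicate 1, which was 1.2 times as high. The difference was -4.94 ± 1.41 log2 units (SE; limma adjusted p = 0.0116). Sftpd was not called without RPR2 replicate 3 (-3.52, limma adjusted p = 0.0820) or with a pseudocount of 0.01 (-6.24, adjusted p = 0.0533 by the same test), with a range of 0.00185 to 0.0820 over the 25 alternatives.

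Abca3 and Lamp3 encode membrane proteins of the lamellar body. ABCA3 pumps phospholipid into it, and LAMP3 is a lysosomal membrane protein that is also made by mature dendritic cells. Abca3, on chromosome 17, 24351950 to 24410201, plus strand, stood at 7.47 to 17.7 FPKM in the RPM tumours with a median of 11.2, against 31.3, 48.8 and 111 FPKM in the RPR2 libraries. No RPM tumour lacked Abca3, and the highest was only 2.37 times the lowest. For Sftpc that ratio was 380. Abca3 fell by 2.16 ± 0.310 log2 units (SE; limma adjusted p = 7.36e-05) and by 1.67 without RPR2 replicate 3 (limma adjusted p = 0.000319).

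Lamp3, on chromosome 16, 19653378 to 19706375, minus strand, ran from 0 to 7.38 FPKM in the RPM tumours with a median of 0.62, against 17.0, 32.3 and 254 FPKM in the RPR2 libraries. It was listed at 0 in RPM replicates 2, 3 and 4, and the groups did not overlap. The difference was -4.53 ± 0.831 log2 units (SE; limma adjusted p = 0.000556), and -3.40 without RPR2 replicate 3 (limma adjusted p = 0.00471).

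Slc34a2 encodes a sodium-phosphate cotransporter of the apical membrane, and Napsa encodes napsin A, an aspartic protease that takes part in the processing of pro-SP-B. Slc34a2, on chromosome 5, 53038081 to 53071664, plus strand, ran from 0 to 21.2 FPKM in the RPM tumours with a median of 2.14, against 33.5, 47.8 and 748 FPKM in the RPR2 libraries. The groups did not overlap, and it was listed at 0 in RPM replicates 2, 4 and 6. Its difference was -4.87 ± 1.14 log2 units (SE; limma adjusted p = 0.00337), and -3.48 without RPR2 replicate 3 (limma adjusted p = 0.0297).

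Napsa, on chromosome 7, 44572380 to 44586862, plus strand, ran from 0.29 to 21.6 FPKM in the RPM tumours with a median of 3.75, against 21.5, 27.1 and 607 FPKM in the RPR2 libraries. RPM replicate 1 (21.64 FPKM) lay above RPR2 replicate 1 (21.45 FPKM), the one overlap between the models among the 10 genes. The difference of Napsa was -3.86 ± 1.05 log2 units (SE; limma adjusted p = 0.00893). It was -2.32 without RPR2 replicate 3 (limma adjusted p = 0.0794, range over the 25 alternatives 0.00231 to 0.0794).

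Etv5 encodes an ETS transcription factor that is induced by fibroblast growth factor (FGF) and ERK signalling and is needed in mice to keep alveolar type 2 cells as such. Etv5, on chromosome 16, 22381309 to 22439719, minus strand, stood at 0.31 to 5.29 FPKM in the RPM tumours with a median of 1.78, against 8.65, 6.48 and 33.2 FPKM in the RPR2 libraries. It was the lowest of the 10 genes in each RPR2 library, and the groups did not overlap. Etv5 fell by 2.25 ± 0.450 log2 units (SE; limma adjusted p = 0.00108) and by 1.58 without RPR2 replicate 3 (limma adjusted p = 0.00820).

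Cxcl15, on chromosome 5, 90794534 to 90803067, plus strand, encodes lungkine, a chemokine that mouse lung epithelium secretes and that draws neutrophils. It ran from 0 to 21.7 FPKM in the RPM tumours with a median of 1.35, against 32.4, 74.1 and 627 FPKM in the RPR2 libraries, and the groups did not overlap. The difference was -5.01 ± 1.08 log2 units (SE; limma adjusted p = 0.00195), and -3.80 without RPR2 replicate 3 (limma adjusted p = 0.0171).

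**Figure D2:**
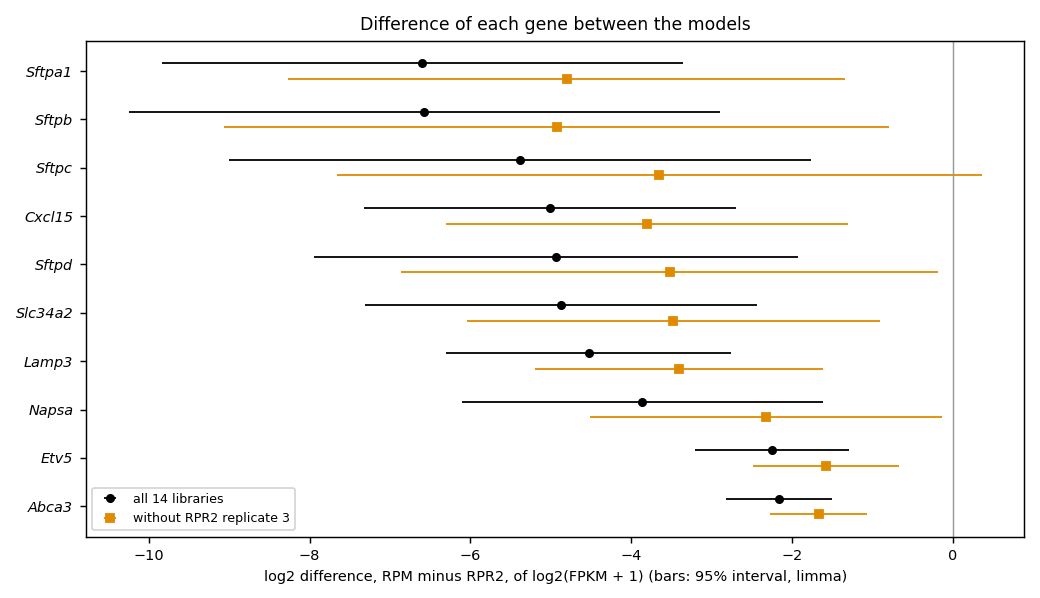
Difference of each gene between the models (horizontal axis, RPM minus RPR2 in log2(FPKM + 1), with 95% intervals from limma), with all libraries in black and without RPR2 replicate 3 in orange. All 20 points lie below 0, and without RPR2 replicate 3 the interval of Sftpc includes 0.

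Each RPR2 library stood above the RPM tumours by its own margin. RPR2 replicate 1 exceeded all 11 RPM tumours for 9 of the 10 genes, against 35.0% of all tested genes. RPR2 replicate 2 did so for all 10, against 34.9%, and RPR2 replicate 3 for all 10, against 23.3%. RPR2 replicate 1 was 0.991 times the highest RPM tumour for Napsa and 2.84 times for Sftpa1, its smallest and largest margins. RPR2 replicate 2 was 1.22 times the highest RPM tumour for Etv5 and 4.38 times for Lamp3.

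RPR2 replicate 3 was on another scale. It was 6.27 times as high as the highest RPM tumour for Abca3 and 140 times as high for Sftpa1. Within RPR2, 6 of the 10 genes (Sftpa1, Sftpb, Sftpc, Sftpd, Slc34a2 and Napsa) were at least 10-fold higher in RPR2 replicate 3 than in both other libraries, against 2.54% of all tested genes. Sftpa1 was 35.4 times as high in RPR2 replicate 3 as in RPR2 replicate 2, Sftpc 31.3 times and Abca3 2.28 times. With 1 library on one side this has no test. The 10 genes together made up 6.38% of the summed FPKM in RPR2 replicate 3, 0.248% and 0.378% in RPR2 replicates 1 and 2, and 0.00247% to 0.143% in the RPM tumours.

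The order of the 4 surfactant protein genes was the same in the 3 RPR2 libraries. Sftpc was highest, then Sftpb, Sftpa1 and Sftpd, in each of the 3. Sftpa1 stood at 21.5%, 21.6% and 24.4% of the Sftpc level in RPR2 replicates 1, 2 and 3. Sftpb stood at 29.9%, 50.5% and 32.5% of it. Abca3 stood at 4.41%, 4.97% and 0.361% of it and Etv5 at 1.22%, 0.659% and 0.108%. These shares were lowest in RPR2 replicate 3, as were those of Sftpd, Lamp3, Slc34a2, Napsa and Cxcl15. Each share is taken over Sftpc, which was highest there.

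Among the RPM tumours the same 4 surfactant protein genes led the order in replicates 1, 5, 9, 10 and 11. Sftpc was at 332 to 615 FPKM there. Sftpa1 in these 5 tumours was at 6.72% to 11.5% of the Sftpc level, below its share in each RPR2 library. In RPM replicates 4 and 6 Abca3 was the highest of the 10 genes, at 10.86 and 15.47 FPKM, and Sftpc stood at 3.84 and 1.62 FPKM. RPM replicates 2 and 3 had Sftpc at 16.5 and 8.73 FPKM and Abca3 next. RPM replicates 7 and 8 lay between, with Sftpc at 87.3 and 45.6 FPKM.

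Tumours whose titles share a number did not have like levels in both cases. Sftpc was at 1.62 FPKM in RPM replicate 6 and 87.3 in RPM replicate 7, and at 371 and 615 FPKM in RPM replicates 10 and 11.

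The number of Myc T58A alleles was compared within RPM. None of the 10 genes was called between LSL/LSL (n = 9) and LSL/+ tumours (n = 2) by limma. Over the 14862 genes tested, limma called 0.0% higher and 0.00673% lower in LSL/LSL. At an unadjusted limma p under 0.05, 4 of the 10 genes (Sftpa1, Sftpb, Sftpd and Napsa) were higher in LSL/LSL tumours and none lower, against 12.2% and 5.06% of all tested genes. The groups overlapped for all 10 genes, while 6.68% of all tested genes were higher and 2.68% lower in LSL/LSL without overlap.

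Sftpc was at 1.62 to 615 FPKM in the LSL/LSL tumours with a median of 332, against 16.5 and 3.84 FPKM in the LSL/+ tumours. Its difference was 3.49 ± 1.80 log2 units (SE, n = 9 and 2; limma adjusted p = 0.320), with a 95% interval of -0.42 to 7.41. Sftpd had the smallest p of the 10 genes, at 0 to 66.3 FPKM in LSL/LSL with a median of 26.9, against 0.25 and 0.04 FPKM in LSL/+ tumours (3.67 ± 1.35 log2 units, SE, n = 9 and 2; limma adjusted p = 0.264). With 2 LSL/+ tumours such intervals are wide.

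Relations among the genes were examined over the 11 RPM tumours alone, since the models stand apart. Sftpc was set against 9 members and 5 list means, 14 relations in all, on log2(FPKM + 1) with permutation p-values adjusted over the 14. Sftpc moved with Sftpb (r = 0.97, rho = 0.95), Sftpa1 (r = 0.96, rho = 0.96), Sftpd (r = 0.96, rho = 0.92), Slc34a2 (r = 0.94, rho = 0.92), Cxcl15 (r = 0.93, rho = 0.95), Lamp3 (r = 0.92, rho = 0.92) and Napsa (r = 0.89, rho = 0.82). For these 7 genes the permutation p of r ran from 1e-05, the smallest these permutations can give, to 0.00082, and the adjusted p from 0.000105 to 0.00128. The permutation p of rho ran from 3e-05 to 0.00314, with adjusted p of 0.00014 to 0.00488. Without the 2 tumours farthest from the Sftpc median, RPM replicates 4 and 6, r was 0.93 to 0.99 for the 7 genes.

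Abca3 did not pass with Sftpc (r = 0.27, permutation p = 0.408, adjusted p = 0.408; rho = 0.24, p = 0.484, adjusted p = 0.521). Without RPM replicates 4 and 6 its r was 0.68. For Etv5 r was 0.56 (permutation p = 0.0758, adjusted p = 0.0885) and rho 0.67 (p = 0.0279, adjusted p = 0.0325), with r of 0.72 without the same tumours. These 2 genes were thus the members whose linear relation with Sftpc did not pass.

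Markers of other lung cells moved with Sftpc in the RPM tumours. The mean of 12 alveolar type 1 genes had r = 0.94 (permutation p = 0.0001, adjusted p = 0.000233; rho = 0.91, p = 0.00028, adjusted p = 0.000507) and that of 9 endothelial genes r = 0.95 (permutation p = 2e-05, adjusted p = 0.000105; rho = 0.97, p = 1e-05, adjusted p = 0.00014). Without RPM replicates 4 and 6 these were 0.95 and 0.96. The means of 11 club cell genes (r = 0.76, permutation p = 0.00738, adjusted p = 0.0103; rho = 0.72, p = 0.0159, adjusted p = 0.0203) and of 9 ciliated cell genes (r = 0.70, permutation p = 0.0198, adjusted p = 0.0252; rho = 0.80, p = 0.00431, adjusted p = 0.00603) also passed. Without the same tumours r was 0.42 for the club genes and 0.60 for the ciliated genes, so the club relation was weaker without RPM replicates 4 and 6 together. The club r also moved with single tumours. It was 0.69 without RPM replicate 4 alone (permutation, adjusted p = 0.0353) and 0.66 without RPM replicate 6 alone (permutation, adjusted p = 0.05), and without RPM replicate 3 alone it was 0.95 (permutation, adjusted p = 0.000157). The neuroendocrine mean did not pass (r = -0.38, permutation p = 0.271, adjusted p = 0.292; rho = -0.15, p = 0.654, adjusted p = 0.654), and r was -0.22 without them. The part of lung tissue around the tumours in the levels of the 10 genes was not tested.

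**Figure D3:**
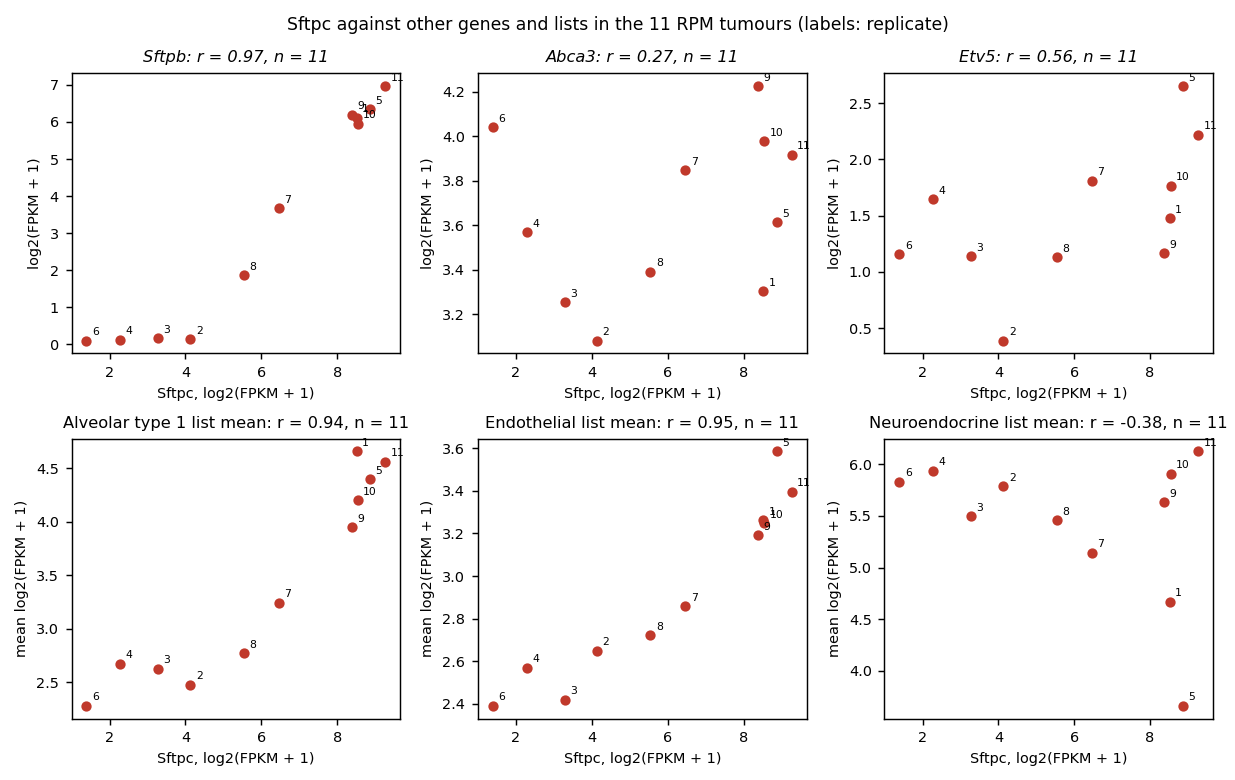
Sftpc (horizontal axis, log2(FPKM + 1)) against Sftpb, Abca3, Etv5 and the mean log2(FPKM + 1) of the alveolar type 1, endothelial and neuroendocrine lists (vertical axes) in the 11 RPM tumours, each point a tumour with its replicate number. Sftpb and the alveolar type 1 and endothelial means rise with Sftpc (r = 0.97, 0.94 and 0.95), and Abca3 does not pass (r = 0.27).

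The genes most like Sftpc over the 11 RPM tumours, among 12855 named genes, were Chil1 (r = 0.974), Ager (0.974), Spp1 (0.965), Ism1 (0.964) and Cldn18 (0.955), given as a description. Ager encodes the receptor RAGE, which marks alveolar type 1 cells, and Spp1 encodes osteopontin. Chil1 and Cldn18 are also on the list of other alveolar type 2 genes, and Ager is on the alveolar type 1 list. Those most like Etv5 were Disp1 (0.933), Vangl1 (0.914), Trim56 (0.910), Ece1 (0.903) and Itpripl2 (0.902). Chil1, a chitinase-like gene also known from alveolar type 2 cells, was at 0 to 69.9 FPKM in the RPM tumours, against 33.8, 51.0 and 1247 FPKM in the RPR2 libraries.

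Of 17 other genes known from alveolar type 2 cells, 15 were tested and 13 fell in RPM with none rising, against 22.8% lower and 18.4% higher of all tested genes. Without RPR2 replicate 3, 8 of 14 tested fell, against 27.4% of all tested genes. Their median difference was -2.75 log2 units, and -1.69 without that library. Muc1, a membrane mucin, was at 0.31 to 17.1 FPKM in RPM with a median of 4.38, against 110, 183 and 700 FPKM in RPR2 (-5.50 ± 0.874, SE; limma adjusted p = 0.000175). Sfta2, a small surfactant-associated protein gene, was at 0 to 8.06 FPKM in RPM, against 15.95, 59.36 and 537 FPKM in RPR2 (-5.08 ± 0.930, SE; limma adjusted p = 0.000544). Rbpjl was at 0.08 to 0.69 FPKM in RPM, against 1.96, 2.27 and 19.9 FPKM in RPR2. No RPM tumour reached 1 FPKM of Rbpjl, so it passed the filter through RPR2 alone, which fixed its direction, and its call carries no weight.

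Of 17 genes that make the lipid part of surfactant, 6 fell and 3 rose in RPM, with a median difference of -0.42, and 5 fell and 3 rose without RPR2 replicate 3. These shares lie near those of all tested genes, of which 22.8% fell and 18.4% rose (27.4% and 16.4% without that library). Srebf1, a master regulator of fatty acid synthesis, was at 16.6 to 22.9 FPKM in RPM, against 44.7, 55.7 and 42.2 FPKM in RPR2 (-1.24 ± 0.132, SE; limma adjusted p = 5.24e-06). Chka, the choline kinase gene at the head of phosphatidylcholine synthesis, was at 16.9 to 25.4 FPKM in RPM, against 31.6, 50.1 and 41.9 FPKM in RPR2 (limma adjusted p = 0.000295). The fatty acid-binding protein gene Fabp5 rose, at 292 to 541 FPKM in RPM, against 67.2, 36.4 and 163 FPKM in RPR2 (2.43 ± 0.317, SE; limma adjusted p = 3.15e-05). Srebf1 and Chka in RPR2 replicate 3 lay below RPR2 replicate 2, unlike the surfactant protein genes. Neither is confined to alveolar cells.

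Of 12 regulators of alveolar type 2 cells, 11 fell and 1, Nfib, rose, against 22.8% and 18.4% of all tested genes. Without RPR2 replicate 3, 8 of 11 fell and Nfib rose, against 27.4% and 16.4%. Tfcp2l1 was at 0.07 to 0.69 FPKM in RPM, against 5.90, 12.96 and 8.94 FPKM in RPR2. It too passed the filter through RPR2 alone, so its direction was fixed by the filter and its call, 1 of the 11, carries no weight. The receptor gene Erbb3 was at 0.34 to 2.57 FPKM, against 14.7, 29.0 and 43.1 FPKM (limma adjusted p = 2.58e-06), and Nfib at 32.7 to 63.8 FPKM, against 16.2, 12.7 and 11.3 FPKM (limma adjusted p = 4.29e-06). Cebpa, whose product C/EBP-alpha acts in lung maturation, was named after its values were seen. It was at 2.23 to 9.62 FPKM in RPM, against 17.7, 21.9 and 262 FPKM in RPR2 (limma adjusted p = 0.00108).

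Of 11 genes of the FGF and ERK response, to which Etv5 belongs, 7 fell in RPM and none rose, against 22.8% and 18.4% of all tested genes. Without RPR2 replicate 3 the count was also 7, against 27.4%, but Spry4 was lost (limma adjusted p = 0.0489 with all libraries and 0.310 without) and Dusp4 gained (0.0534 and 0.0381). Spry4 and Dusp4 were named after their values were seen. Dusp6, a phosphatase of ERK, was at 2.69 to 7.22 FPKM in RPM, against 38.4, 37.3 and 92.4 FPKM in RPR2 (-3.25 ± 0.302, SE; limma adjusted p = 1.58e-06). The feedback inhibitor gene Spry1 was at 3.77 to 7.50 FPKM, against 16.2, 19.3 and 65.0 FPKM (limma adjusted p = 9.60e-05), and the ETS factor gene Etv1 at 0.36 to 4.13 FPKM, against 17.0, 18.6 and 6.49 FPKM (limma adjusted p = 6.24e-05). Etv1 was lowest of the RPR2 libraries in replicate 3, where Dusp6, Spry1 and Etv5 were highest.

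Marker lists of other cells in the lung are given beside these results. Summed over 12 alveolar type 1 genes, the level was 227 to 587 FPKM in the RPM tumours, and 361, 469 and 1045 FPKM in the RPR2 libraries. Their mean of log2(FPKM + 1) was 2.28 to 4.66 in RPM with a median of 3.24, against 4.53, 4.69 and 4.84 in RPR2. In RPM against RPR2, 6 fell and 2 rose of these 12, against 22.8% and 18.4% of all tested genes. Without RPR2 replicate 3, 3 fell and 2 rose, shares near the 27.4% and 16.4% of all tested genes. Emp2 was at 0.97 to 28.8 FPKM in RPM, against 75.6, 106 and 101 FPKM in RPR2 (limma adjusted p = 0.00107). The 2 that rose were Igfbp2, at 22.4 to 407 FPKM in RPM against 24.6, 7.99 and 5.35 FPKM in RPR2 (limma adjusted p = 0.000971), and Spock2, at 30.4 to 146 FPKM against 28.9, 32.8 and 2.04 FPKM (limma adjusted p = 0.00386). These 2 had the highest RPM medians of the list, at 133 and 87.0 FPKM, so its sum in RPM leans on them.

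Club cell genes summed to 2.77 to 1852 FPKM in the RPM tumours, and to 4014, 27684 and 3487 FPKM in the RPR2 libraries. Of 11 tested 6 were lower and none higher, against 22.8% and 18.4% of all tested genes. Without RPR2 replicate 3, 5 of 10 were lower, against 27.4%. Scgb1a1 made up most of the club sum in RPR2 replicates 1 and 2, at 3114 and 23990 FPKM, and stood at 743 FPKM in RPR2 replicate 3. Bpifa1 was the largest part of the sum in RPR2 replicate 3, at 2235 FPKM. It was at 0.71 and 4.64 FPKM in RPR2 replicates 1 and 2. Club cells also make some surfactant proteins. Hp was at 0.71 to 58.8 FPKM in RPM, against 150, 625 and 223 FPKM in RPR2. Cyp2f2 had a median of 6.49 FPKM in RPM, against 57.1, 356 and 11.4 FPKM in RPR2, and its highest RPM tumour lay above RPR2 replicate 3. Cckar, at 0 to 0.96 FPKM in RPM against 5.70, 20.7 and 4.04 FPKM in RPR2, passed the filter through RPR2 alone, so its call, 1 of the 6, carries no weight. RPR2 replicate 2 was the highest for Hp, Cyp2f2 and Cckar, and not RPR2 replicate 3. Ciliated cell genes summed to 25.7 to 103 FPKM in the RPM tumours, and to 66.5, 83.5 and 31.1 FPKM in the RPR2 libraries. None of 7 tested was called by limma, against the same shares of all tested genes, while 1 of the 7 fell without RPR2 replicate 3.

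Alveolar macrophages, which take up surfactant, had a list sum of 6.57 to 46.6 FPKM in the RPM tumours, and of 86.7, 51.5 and 996 FPKM in the RPR2 libraries. Of 7 tested genes 3 fell in RPM, namely Chil3, Pparg and Car4, and the other tested genes were not called. Without RPR2 replicate 3, 2 of the 7 fell. Beside the counts of this paragraph, 22.8% of all tested genes fell and 18.4% rose, or 27.4% and 16.4% without RPR2 replicate 3. Chil3 was at 0.16 to 21.3 FPKM in RPM, against 62.1, 26.2 and 750 FPKM in RPR2. It made up the largest part of the list sum in each RPR2 library. The macrophage mean of log2(FPKM + 1) was 0.60 to 1.86 in RPM, against 1.95, 1.86 and 4.35 in RPR2. Endothelial genes summed to 57.8 to 128 FPKM in the RPM tumours, and to 339, 424 and 104 FPKM in the RPR2 libraries. With or without RPR2 replicate 3, 2 of 9 were lower (Vwf and Tek), a share near that of all tested genes. Vwf made up most of the endothelial sum in RPR2 replicates 1 and 2, at 238 and 329 FPKM. It was at 28.3 FPKM in RPR2 replicate 3 and at 1.02 to 14.3 FPKM in RPM. The median difference of the endothelial list was -0.15 log2 units, and -0.56 without RPR2 replicate 3. Fibroblast genes summed to 134 to 393 FPKM in the RPM tumours, and to 294, 213 and 128 FPKM in the RPR2 libraries, with 4 lower and 3 higher of 9 in both fits. Of the 12 neuroendocrine genes, Calca fell and Uchl1 rose with all libraries, and 7 fell and none rose without RPR2 replicate 3. In RPR2 replicate 3 the alveolar type 2, alveolar type 1 and alveolar macrophage sums were above both other RPR2 libraries, and the ciliated, endothelial, fibroblast and neuroendocrine sums below both. Ager was the largest part of the alveolar type 1 sum there, at 515 FPKM. The alveolar type 1 means of log2(FPKM + 1) were close, at 4.53, 4.69 and 4.84 in RPR2 replicates 1, 2 and 3. The club mean of log2(FPKM + 1) was 4.94, 6.77 and 5.27 in RPR2 replicates 1, 2 and 3, an order that differs from that of the club sums. Of the genes named from all these lists and called with all libraries, Car4, Uchl1, Chil1, Cldn18, Ager, Spry4, Nkx2-1 and Gata6 were not called without RPR2 replicate 3 (limma adjusted p = 0.179, 0.164, 0.264, 0.052, 0.168, 0.310, 0.159 and 0.089). Rbpjl, Tfcp2l1 and Cckar were then below the filter. The part of these cells in the differences of the 10 genes was not tested.

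**Figure D4:**
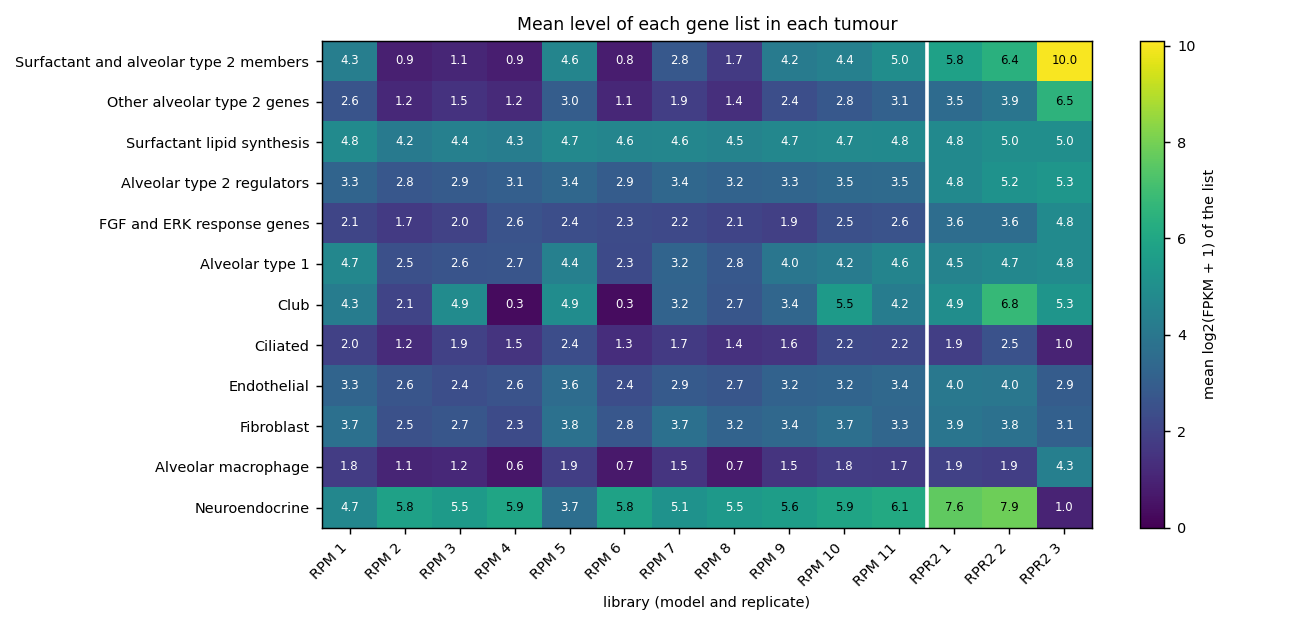
Mean log2(FPKM + 1) of each gene list (rows) in each library (columns, RPM then RPR2), with the value printed in each cell and shown by colour. RPR2 replicate 3 combines the highest mean of the 10 surfactant and alveolar type 2 genes with the lowest neuroendocrine mean (1.0), while the RPM means run from 0.80 to 4.97 and from 3.66 to 6.13.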

How the data were processed

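The authors deposited 1 table of FPKM values, with 1 column per tumour, which the submitters' processing notes tie to RSEM 1.2.12, Bowtie 1.0.1 and mm10 without roles or settings. Its annotation release and strand setting were not given in the sources used here. Reads shared by several genes are divided among them by RSEM. Columns were matched to samples by title, groups were taken from the genotype labels and symbols were found for 46005 identifiers. Another row, a reporter, was left out.

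Values were analysed as log2(FPKM + 1), which understates the fold of low genes. Those reaching 1 FPKM in 3 or more libraries entered limma 3.58.1, run in R 4.3.3 (two-sided, variance trend allowed, p-values adjusted over all tested genes by Benjamini-Hochberg, threshold 0.05), 15719 for RPM against RPR2 and 14862 within RPM. Adjusted p-values credited to limma are all of this kind. Relations used 100000 permutations, two-sided. Read length and depth were estimated from the steps of low FPKM values in short genes with 1 transcript, and no count model was fitted. The level of 3 reads was taken for the longest coding transcript in GENCODE M21. Scripts were tested on simulated data.

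The alternatives tried were no filter, a mean of 5 FPKM as filter, pseudocounts of 0.1 and 0.01, scaling to TPM, by median of ratios or to common quantiles, array weights, the title number as a random effect, an exact Wilcoxon test, only LSL/LSL tumours and leaving out each library. The members and all lists were chosen with earlier results of these data known. Named genes are the 10 members, up to 3 genes of each list with the smallest p, and the 5 genes most like Sftpc and Etv5. Chga, Syp, Cebpa, Spry4 and Dusp4 were named after their values were seen.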

Additional observations from a re-analysis of the deposited data

How the results depend on the processing

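Between RPM and RPR2 the 10 genes kept their direction in all 25 alternatives. The number called lower was 6 to 10 when 1 library was left out, and 6 only without RPR2 replicate 3, with none called higher. Over all tested genes 2276 to 3033 were called higher and 2360 to 4227 lower when 1 library was left out, the lowest count of lower genes being that without RPR2 replicate 2, against 2897 and 3586 with all. A filter at a mean FPKM of 5 gave 2171 lower (fewer genes were tested), array weights gave 6577 lower and TPM scaling 1878 higher, and the cause of the last 2 was not tested. TPM scaling moved the median difference of all tested genes to -0.23 and that of the 10 genes to -5.26. No called gene of the other lists changed direction under the 3 scalings tried, but the number called moved. Under TPM scaling the lower calls went from 6 to 4 for the club list and from 7 to 9 for the FGF and ERK list. Median-of-ratios scaling took the alveolar type 1 list from 6 to 4 lower. Quantile normalization took the alveolar macrophage list from 3 to 1 lower and the ciliated list from 0 to 2 higher.

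Between LSL/LSL and LSL/+ tumours none of the 10 genes was called in any alternative. Over all tested genes 0 to 6 were called higher and 0 to 1 lower when 1 library was left out. Pseudocounts of 0.1 and 0.01 gave 4 and 9 higher, no filter gave 30 lower, and TPM scaling, quantile normalization and array weights gave 0 lower, whose cause was not tested. The exact Wilcoxon test also gave 0 lower, but with 55 splits of the tumours its smallest p could not pass the adjustment here, so it says nothing about the genes. TPM scaling moved the median difference there to 0.39, against 0.16. The difference of Etv5 was 0.59 with all tumours, and it was -0.03 without RPM replicate 2 and 1.22 without RPM replicate 4. These 2 fits, the second of which gave the 6 higher calls, leave 1 LSL/+ tumour, which is assumed to vary like the others.

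Of the 14 relations of Sftpc, 11 passed by r with all tumours and 9 to 12 when 1 tumour was left out. The relation with the ciliated list was lost with 1 tumour per title number (r = 0.66, permutation, adjusted p = 0.0728) and without RPM replicate 5, 6 or 11, and that with the club list without RPM replicate 6 (r = 0.66, permutation, adjusted p = 0.05). That with Etv5 passed without RPM replicate 4 (r = 0.66, permutation, adjusted p = 0.0444).

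No paired analysis was possible because replicate numbers were given in accession order and pair no tumours. Depth limits the surfactant genes in RPM replicates 2, 3, 4 and 6, where several are at or under the level of 3 reads.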
